A study of Mus musculus with 14 samples.

Results

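Thy1 siRNA and Trpm4 siRNA arrays were compared with arrays of untreated cells in mouse Th1 and Th2 cells. The comparison takes 6 of the 14 arrays of the series. For each cell type there is 1 array of untreated cells, 1 of cells given Thy1 siRNA and 1 of cells given Trpm4 siRNA, which makes 4 siRNA arrays and 2 untreated ones. Arrays were assigned by their titles, so the choice used no measured value. The other 8 arrays come from cells with an empty vector or a dominant negative Trpm4 retrovirus. All cells were T cells polarised in culture to Th1 or Th2. Thy1 is a glycoprotein of the T cell surface, and its siRNA serves here as the second targeting RNA. Trpm4, whose inhibition the series studies, is a calcium-activated cation channel. Strain, sex, age, the way siRNA was delivered and any restimulation of these 6 cultures are not stated in the labels, and neither is whether arrays came from separate animals. The 8 retrovirus arrays carry a stimulation time in their labels. No array of cells handled like the siRNA cultures but without siRNA is among the 14, so siRNA and any other difference in handling cannot be told apart.

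Th1 cells make interferon gamma under the factor T-bet (gene Tbx21), and Th2 cells make interleukins 4, 5 and 13 under Gata3. A resting effector cell keeps homing receptors and growth inhibitors such as Klf2 and S1pr1. When its antigen receptor is engaged, calcium flows in, NFAT, AP-1 and NF-kappaB enter the nucleus, and within hours cytokine and chemokine genes are transcribed. Small interfering RNA guides cleavage of a matching transcript, and double-stranded RNA can also set off an interferon response in many cell types.

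The 6 arrays had similar signal ratios between the 3′ and 5′ ends of control transcripts, with log2 differences from -0.25 to 0.21. Levels below are log2 signals after quantile normalisation with 16 added, so that no level can be under 4, and the median was 5.39. The 2 siRNA arrays of a cell type correlated at 0.990 in Th1 and 0.991 in Th2, and each correlated with the untreated array of its cell type at 0.827 to 0.891. The untreated arrays correlated with each other at 0.918. Lineage genes mostly followed the labels. Gata3 stood at 8.34 to 8.61 on the 3 Th1 arrays and at 11.06 to 11.50 on the 3 Th2 arrays. Tbx21 was 9.56 in untreated Th1 and 6.51 in untreated Th2 cells, but 8.79 and 8.73 in Th1 and 9.45 and 9.46 in Th2 cells with siRNA. Sex-linked transcripts differed between arrays of a cell type. Xist, which is made from the inactive X chromosome, read 10.38 in untreated Th1 cells and 4.40 and 4.36 in Th1 cells with siRNA. The Y-linked Eif2s3y read 5.47 there against 8.99 and 8.96. In Th2 cells Xist read 10.28 untreated and 8.95 and 8.96 with siRNA on the same probe set, but 10.12 against 10.48 and 10.34 on another, where Th1 cells read 10.58, 4.95 and 4.91. Eif2s3y read 6.47 in untreated Th2 cells against 4.50 and 4.52. The part of a different sex of the donor animals in the results below was not tested.

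Each targeted transcript was lowest on the array of its own siRNA. Thy1 stood at 12.65 in untreated Th1 cells, 11.12 after Thy1 siRNA and 12.46 after Trpm4 siRNA, and in Th2 cells at 12.62, 9.61 and 11.71 in the same order. Trpm4 stood at 6.90, 6.95 and 6.23 in Th1 and at 7.59, 7.25 and 6.62 in Th2 cells, again untreated first and its own siRNA last. The drop of Thy1 was larger in Th2 than in Th1 cells. Over all 4 siRNA arrays together neither passed (limma adjusted p 0.152 for Thy1 and 0.219 for Trpm4).

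Markers of other cell types differed between arrays. The summed signal of 9 B cell markers was 417 in untreated Th1, 483 and 493 in Th1 siRNA, 655 in untreated Th2 and 247 and 277 in Th2 siRNA cells. The sum over 14 macrophage and dendritic cell markers was 461, 877 and 924, and 1700, 645 and 691, in the same order. An Ighm probe set for the immunoglobulin heavy chain read 10.97 in untreated Th2 cells, 7.79 and 7.35 in Th2 siRNA cells, 6.41 in untreated Th1 and 4.67 and 4.49 in Th1 siRNA cells. The untreated Th2 array was thus the highest of the 6 in both sums and on this Ighm probe set. Ighm has several probe sets, and this one was picked. Others were also highest in untreated Th2 cells, at 10.07, 10.71 and 9.82. The last of these read 5.46 in untreated Th1 cells and was higher on both Th1 siRNA arrays. Not all were highest there. One read 6.35 in untreated Th2 cells and 6.5 after Thy1 siRNA. Another, not tested, read 7.1 in untreated Th1 and 5.22 in untreated Th2 cells. Of the B cell markers 6 of 9 fell and 0 rose in Th2, and of the macrophage and dendritic cell markers 8 of 14 fell and 1 rose. Of all probe sets 21.1% fell and 22.0% rose in Th2. In Th1 3 of the B cell markers rose and 3 fell. Of the macrophage and dendritic cell markers 4 rose and 4 fell there, against 32.7% and 26.1% of all probe sets. These values stand beside every fall in Th2 given below, and their part was not tested. The sum over 7 markers of natural killer and CD8 T cells was 860, 1160 and 1202 in Th1 cells, untreated first. In Th2 cells it was 428, 1570 and 1594. The 7 members did not move together. In Th1 2 rose and 4 fell (median -1.11), and in Th2 2 rose and 1 fell (median 0.23). The Th2 sums stand beside the rises in Th2, and their part was not tested. Of 7 Treg and Th17 markers 1 rose and 0 fell in limma, and of 4 erythroid markers 0 passed (1 at an unadjusted p under 0.05). Of 12 fibroblast and endothelial markers, among them Thy1 itself, 4 rose and 2 fell. The counts of these last lists are over both cell types, where 21.2% of all probe sets rose and 17.1% fell. In these bulk arrays fewer cells of a type and less RNA per cell cannot be told apart.

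Shared changes were tested first, with the cell type as a block. Of 29467 probe sets, 11288 passed at a limma adjusted p under 0.05 (38.3%), 6240 of them higher (21.2%) and 5048 lower (17.1%) with siRNA. Each of the 11288 had the same sign in all 4 siRNA arrays. A difference of at least 2-fold was reached by 2973 of them higher (10.1%) and by 2541 lower (8.62%). The median log2 difference over all tested probe sets was 0.04. Since the 2 siRNA arrays of a cell type are nearly alike and there is 1 untreated array, they may not be independent samples, and p-values measure only the spread between these arrays, which may be technical. With the siRNA arrays of each cell type averaged to 1, which leaves 2 pairs, 3100 passed (10.5%), 1596 higher (5.42%) and 1504 lower (5.10%). On the deposited values without normalisation 74.9% of the calls were higher, against 55.3% here, and the median of all probe sets shifted to 0.28. Changes below are relative to the normalised arrays. The count fell to 6833 without the Th1 Thy1 siRNA array, 7487 without the Th1 Trpm4 siRNA array and 7472 without the Th2 Trpm4 siRNA array, and was 17323 without the untreated Th2 array.

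The change in Th1 and the change in Th2 use no array in common. Across the 29467 probe sets they correlated at a Pearson r of 0.65 and a Spearman rho of 0.60, and 70.9% had the same sign. This is a description across probe sets, which are not independent.

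**Figure D1:**
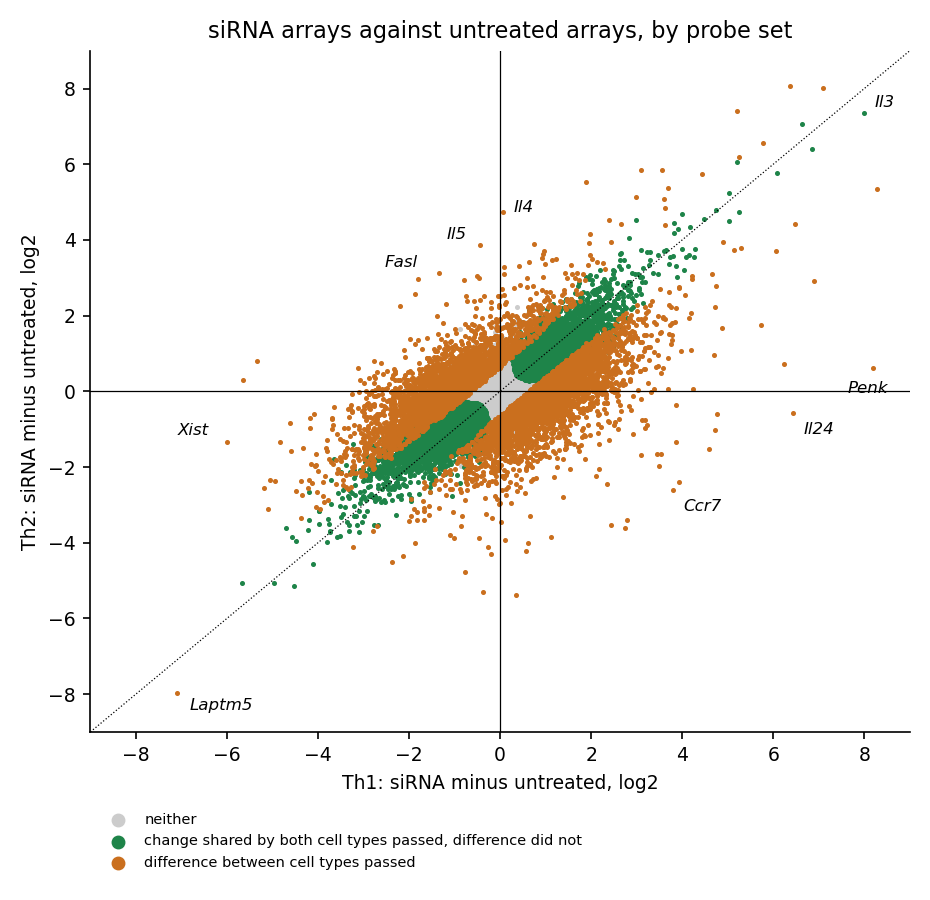
Log2 difference between the mean of the 2 siRNA arrays and the untreated array, in Th1 cells (x axis) and Th2 cells (y axis), 1 point per tested probe set (29467). Green points passed the shared comparison without a difference between cell types (8961 probe sets), orange points passed the test of the difference (7219), and the dotted line marks equal change.

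Cytokine and chemokine genes rose most. Il3, an interleukin made by activated T cells, was near the floor in both untreated arrays (4.19 in Th1, 4.33 in Th2) and stood at 11.98 and 12.41 in Th1 and at 11.61 and 11.74 in Th2 cells with siRNA. Its log2 difference was 7.68 ± 0.21 (SE, limma adjusted p 0.000185, and 0.000952 with 2 pairs). All 4 siRNA arrays were far above both untreated arrays. Xcl1, a chemokine of activated lymphocytes, went from 4.25 to 12.44 and 12.63 in Th1 and from 4.73 to 9.94 and 10.18 in Th2 cells. Ccl1, a ligand of Ccr8, went from 7.88 to 13.02 and 13.15 in Th1 and from 5.83 to 13.20 and 13.26 in Th2 cells. Ccl3, an inflammatory chemokine, went from 7.66 to 13.41 and 13.46 and from 6.6 to 13.16 on both arrays. Csf2, which encodes the growth factor GM-CSF, went from 7.13 to 11.75 and 11.98 and from 5.89 to 10.65 and 10.71. These genes were named for large differences that passed, and no passing probe set had mixed signs. That their siRNA and untreated arrays do not overlap is therefore no added support.

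The stretch of 250 bases before the start site is shown for the leading cytokine genes, since they rose together. The sequences and positions are those of RefSeq on GRCm38.p6. All lie on the minus strand and are printed in the direction of the gene, and capitals mark GGAAA on either strand, the core that NFAT binds. This motif was added to the search after the values were known. The windows are chr11:54267280-54267529 (Il3), chr11:53634703-53634952 (Il13), chr11:54249900-54250149 (Csf2), chr11:82179813-82180062 (Ccl1), chr11:83649379-83649628 (Ccl3) and chr1:164935523-164935772 (Xcl1). Il3, Il13 and Csf2 thus lie in one cytokine cluster on chromosome 11.
Il3: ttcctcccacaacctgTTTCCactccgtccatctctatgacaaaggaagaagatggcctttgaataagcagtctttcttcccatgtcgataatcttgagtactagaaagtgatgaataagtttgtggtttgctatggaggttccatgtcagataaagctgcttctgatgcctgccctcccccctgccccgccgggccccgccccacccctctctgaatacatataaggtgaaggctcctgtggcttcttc
Il13: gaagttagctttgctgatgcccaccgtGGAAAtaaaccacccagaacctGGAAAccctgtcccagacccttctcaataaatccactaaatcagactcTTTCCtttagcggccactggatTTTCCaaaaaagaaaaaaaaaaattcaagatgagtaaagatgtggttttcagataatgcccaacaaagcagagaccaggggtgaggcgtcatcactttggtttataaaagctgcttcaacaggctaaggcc
Csf2: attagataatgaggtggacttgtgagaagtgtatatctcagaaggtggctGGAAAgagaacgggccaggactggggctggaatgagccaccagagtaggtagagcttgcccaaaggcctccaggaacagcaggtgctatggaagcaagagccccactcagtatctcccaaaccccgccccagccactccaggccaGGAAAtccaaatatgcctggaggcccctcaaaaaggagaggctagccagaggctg
Ccl1: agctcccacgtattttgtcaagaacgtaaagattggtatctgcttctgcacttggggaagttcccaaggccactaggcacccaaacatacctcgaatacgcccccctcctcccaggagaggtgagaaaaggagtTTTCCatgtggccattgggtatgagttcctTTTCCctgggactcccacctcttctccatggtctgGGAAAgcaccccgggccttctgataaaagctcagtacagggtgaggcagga
Ccl3: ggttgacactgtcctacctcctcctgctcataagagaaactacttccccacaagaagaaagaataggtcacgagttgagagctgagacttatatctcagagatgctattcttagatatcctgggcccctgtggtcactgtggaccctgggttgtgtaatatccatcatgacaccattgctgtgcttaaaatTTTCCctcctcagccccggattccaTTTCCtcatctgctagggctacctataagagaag
Xcl1: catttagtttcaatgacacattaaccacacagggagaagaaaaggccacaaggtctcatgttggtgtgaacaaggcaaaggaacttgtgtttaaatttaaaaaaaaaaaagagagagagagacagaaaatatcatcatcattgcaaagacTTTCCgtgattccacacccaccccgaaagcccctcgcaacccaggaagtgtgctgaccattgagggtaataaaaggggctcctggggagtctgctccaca
The core occurred 1 time in Il3, 4 times in Il13, 2 times in Csf2, 3 times in Ccl1, 2 times in Ccl3 and 1 time in Xcl1. It is short and common. It was present in 23 of 25 promoters of the cytokine list (92%) and in 61.3% of all 32851 promoters of the table. Among promoters of tested genes the share was 59%, and among those of genes called at least 2-fold higher 60.3%. The AP-1 motif TGANTCA was in 5 of the list's 25 promoters (20%) and in 7.81% of all, with no match in the 6 windows printed. It was in 5.45% of promoters of tested genes and in 5.61% of those of genes called at least 2-fold higher.

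Of the 29 cytokine and chemokine genes tested, 17 rose (58.6%) and 1 fell (3.45%), with a median difference of 1.94. With 2 pairs 11 rose and 1 fell. Il13 went from 4.09 to 10.16 on both Th1 siRNA arrays and from 8.28 to 11.92 and 12.04 in Th2 cells. Ifng, the Th1 signature cytokine, went from 10.71 to 13.36 on both Th1 siRNA arrays and from 5.48 to 9.84 and 9.98 in Th2 cells. Tnf rose by 1.54 ± 0.39, from 8.83 to 9.48 and 9.46 in Th1 and from 6.13 to 8.63 and 8.52 in Th2 cells. It did not pass with 2 pairs (adjusted p 0.0779). The 1 that fell was Ltb, the membrane partner of lymphotoxin, at 12.40 untreated and 9.08 and 8.74 with siRNA in Th1 and at 10.63 against 8.81 and 8.78 in Th2. It was picked out after its value was seen.

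**Figure D2:**
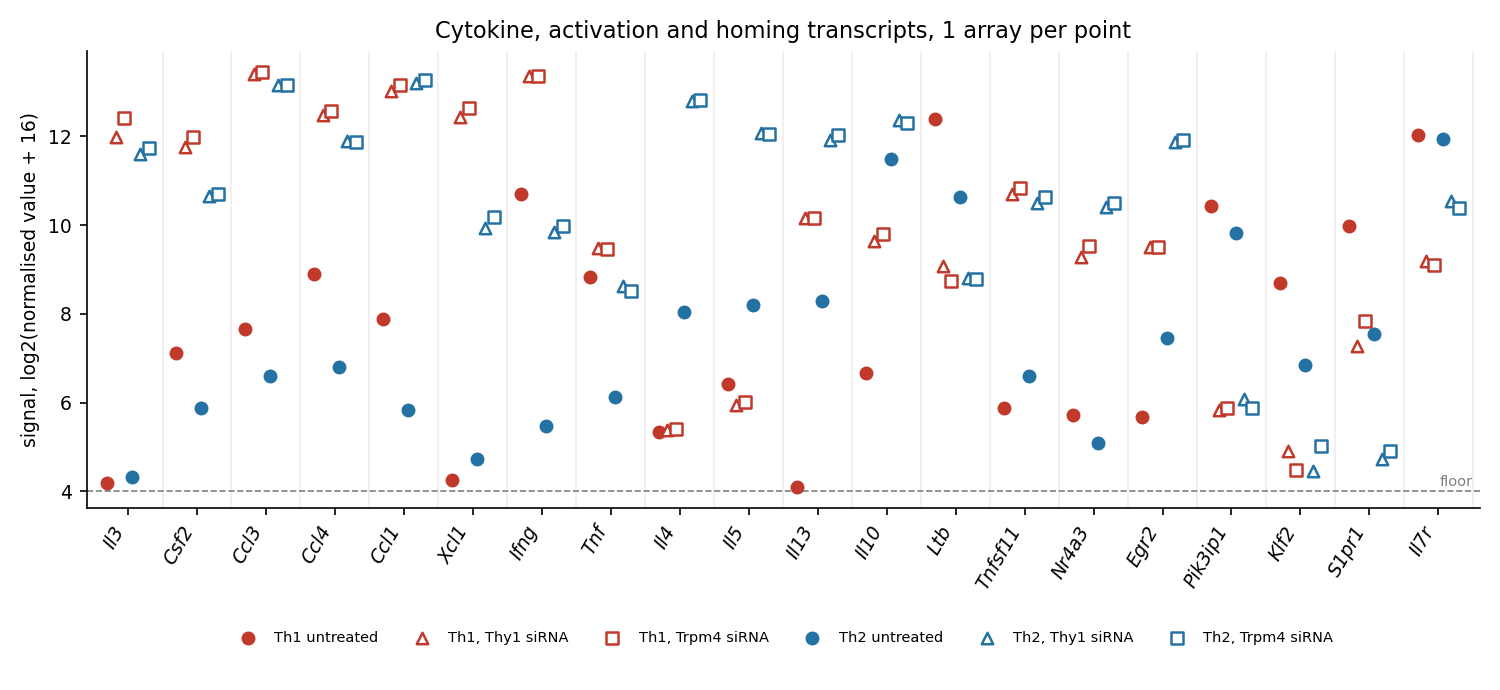
Log2 signal of 20 cytokine, activation and homing genes (y axis) on each of the 6 arrays, with filled circles for untreated cells, triangles for Thy1 siRNA and squares for Trpm4 siRNA, Th1 in red and Th2 in blue. The 2 siRNA arrays of a cell type lie close together, and Il3 and Xcl1 rise from near the floor (dashed line at 4) while Pik3ip1 and Klf2 fall.

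Other genes with the largest rises were Rgs16, which limits signalling by G proteins, at 5.72 ± 0.23, Inhba, a subunit of activin, at 5.44 ± 0.45, and Crtam, an adhesion receptor of activated T cells, at 5.14 ± 0.13. Crtam read 4.57 in untreated Th1 cells, 9.57 and 9.64 with siRNA, and 4.34, 9.52 and 9.63 in Th2 cells. Crabp2, a carrier of retinoic acid, and Olr1, a scavenger receptor, rose by 5.63 ± 0.22 and 5.09 ± 0.31. All of these passed with 2 pairs too, at adjusted p from 0.00219 to 0.00594. The Th1 retrovirus arrays labelled with 12 hours of stimulation give a level for the same genes. Il3 read 13.36 on both, Xcl1 13.11 and 13.12, Ccl3 13.71 on both and Rgs16 11.61 and 11.60 (empty vector and dominant negative Trpm4). In Th1 cells the siRNA levels of these 4 genes thus lay between those of untreated and of 12-hour stimulated cells. Of the 17 cytokines that rose, 11 lay between in this way and 6 lay above both 12-hour arrays. Il13 was one of the 6, at 10.16 on both siRNA arrays against 8.30 and 8.76, and Il6 another, at 8.36 and 8.95 against 5.57 and 5.42. No stimulation is recorded for the siRNA cultures.

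Transcription factors induced early after receptor engagement also rose. Of 26 immediate early genes 13 rose (50%) and 4 fell (15.4%), against 21.2% and 17.1% of all probe sets. Their median was 0.71, and with 2 pairs 7 rose and 2 fell. Nr4a3, an orphan nuclear receptor, read 5.72 in untreated Th1 cells, 9.28 and 9.52 with siRNA, and 5.09, 10.41 and 10.50 in Th2 cells. Nr4a2 rose by 3.53 ± 0.14 on the probe set used, and all 6 of its probe sets were called higher. Egr2, a zinc finger factor, read 5.67 against 9.50 on both Th1 siRNA arrays, and 7.45 against 11.87 and 11.91 in Th2 cells. Egr3 rose by 2.78 ± 0.30 and Dusp4, a phosphatase of MAP kinases, by 2.83 ± 0.44. The 4 that fell, seen only afterwards, were Fos, Dusp1, Ier2 and Btg2, whose differences ranged from -0.43 to -1.90. The list thus held early genes on both sides.

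Among 20 genes of the NF-kappaB system 9 rose (45%) and 2 fell (10%), with a median of 0.54, against 21.2% and 17.1% of all probe sets. The subunits Nfkb2, Rel and Relb rose by 1.99 ± 0.28, 1.77 ± 0.33 and 1.32 ± 0.27. The inhibitors Nfkbia and Nfkbiz rose by 1.38 ± 0.26 and 1.37 ± 0.21. Ikbke, a kinase of interferon signalling, fell by 1.5 ± 0.18. Rel read 6.71 in untreated Th1 cells and 7.64 and 7.85 with siRNA, and 6.24, 8.70 and 8.78 in Th2 cells. Only 1 of the 2 tested Nfkb2 probe sets was called higher and the other was called lower. With 2 pairs 3 of the 20 were higher and 1 lower.

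Of 21 surface molecules of activated T cells 9 rose (42.9%) and 2 fell (9.52%), or 5 and 0 with 2 pairs. Tnfsf11, the RANK ligand, read 5.87 in untreated Th1 cells, 10.70 and 10.83 with siRNA, and 6.61, 10.49 and 10.64 in Th2 cells. Tnfsf14 (LIGHT) rose by 2.42 ± 0.22, Tnfsf8 (CD30 ligand) by 2.05 ± 0.22 and Cd83 by 2.0 ± 0.33. Tnfrsf9, the costimulatory receptor 4-1BB, rose by 1.78 ± 0.37, and Tfrc, the transferrin receptor, by 1.90 ± 0.55. The Tfrc change missed the threshold with 2 pairs (adjusted p 0.0838), as its rise was 3.19 in Th1 and 0.60 in Th2. Of 22 survival and apoptosis genes 4 rose (18.2%) and 2 fell (9.09%), both below the 21.2% and 17.1% of all probe sets. Their median was -0.02, which became 0.32 on the deposited values. Bcl2l1, which encodes the survival protein Bcl-xL, rose by 1.67 ± 0.15 and the death receptor Fas by 1.85 ± 0.26.

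Ribosome assembly rose most evenly of the lists. Of 31 genes of ribosome biogenesis and Myc targets 24 rose (77.4%) and 0 fell in limma (25 and 1 at an unadjusted p under 0.05), with a median of 1.03. With 2 pairs 9 rose. Nop58, a core protein of small nucleolar ribonucleoproteins, read 8.17 in untreated Th1 cells, 11.18 and 11.19 with siRNA, and 7.79, 9.88 and 9.93 in Th2 cells. Nop16 and Nop2, both nucleolar, rose by 2.19 ± 0.22 and 1.85 ± 0.22, and Dkc1, the pseudouridine synthase, by 2.0 ± 0.27. Srm, the spermidine synthase, rose by 1.90 ± 0.43, with 2.89 in Th1 and 0.91 in Th2. Every one of these stood higher on all 4 siRNA arrays, as did every probe set called higher. The Myc E-box CACGTG was in 5 of the list's 27 promoters (18.5%) and in 7.15% of all promoters. Among promoters of tested genes the share was 9.5%, and among those of genes called at least 2-fold higher 9.93%.

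Chaperone and amino acid stress genes rose as well. Of 35 genes of the unfolded protein, heat shock and ATF4 responses 17 rose and 0 fell in limma (21 and 0 at an unadjusted p under 0.05), with a median of 0.53 (5 higher with 2 pairs). Slc7a5, a transporter of large amino acids, read 6.10 in untreated Th1 cells, 9.78 and 9.93 with siRNA, and 6.89, 8.18 and 8.12 in Th2 cells. Sesn2, a sensor of leucine, rose by 2.12 ± 0.33, Atf4 itself by 1.5 ± 0.17, and the enzymes of asparagine and serine synthesis Asns and Psat1 by 1.47 ± 0.43 and 1.42 ± 0.37. The motif TGATGCAA, bound by ATF4, was in 5 of the list's 34 promoters (14.7%) and in 0.895% of all. Among promoters of tested genes the share was 0.622%, and among those of genes called at least 2-fold higher 0.618%. In the oxidative stress list 6 of 18 rose (33.3%), among them the thioredoxin reductase Txnrd1 at 1.45 ± 0.24. In that list 3 fell (16.7%), among them Osgin1 at -3.12 ± 0.28, against 21.2% higher and 17.1% lower of all probe sets.

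Genes of quiescence and homing fell. Of 22 tested 13 fell (59.1%) and 1 rose (4.55%), with a median of -0.88, and with 2 pairs 10 fell and 0 rose. Pik3ip1, an inhibitor of PI3 kinase, read 10.44 in untreated Th1 cells, 5.83 and 5.89 with siRNA, and 9.82, 6.08 and 5.88 in Th2 cells. Its fall was 4.21 ± 0.20 on the log2 scale (limma adjusted p 0.000481), and its other probe set fell by 3.87. Klf2, the factor that sustains homing receptors, read 8.69, 4.91 and 4.49 in Th1 and 6.86, 4.47 and 5.03 in Th2 cells. S1pr1, the receptor for exit from lymph nodes, read 9.99, 7.28 and 7.85, and 7.55, 4.74 and 4.92. Il7r fell by 2.18 ± 0.32, Rgs10 by 2.12 ± 0.25 and Cxcr4 by 1.98 ± 0.22. The 12-hour Th1 retrovirus arrays read 4.69 and 5.05 for Pik3ip1, as low as the siRNA arrays.

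Adhesion and motility genes were lower in 14 of 35 cases (40%) and higher in 4 (11.4%), against 17.1% and 21.2% of all probe sets. The median was -0.51, and with 2 pairs 7 were lower and 2 higher. The beta 3 integrin Itgb3 read 8.37 in untreated Th1 cells, 4.72 and 4.84 with siRNA, and 10.10, 6.19 and 6.29 in Th2 cells. Itgb7, the beta chain of gut homing integrins, fell by 3.05 ± 0.36, and its partner Itgae by 2.12 ± 0.23. Ahnak, a large scaffold protein, fell by 2.35 ± 0.22 and the calcium-binding S100a4 by 2.13 ± 0.26. Vcl, which links integrins to actin, rose by 2.13 ± 0.20, though only 1 of its 2 probe sets was called. On the deposited values the median of this list was -0.07.

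Several chains of the antigen receptor complex fell. Of 18 T cell identity genes 0 rose and 9 fell in limma (0 and 12 at an unadjusted p under 0.05), with a median of -0.81, and 3 fell with 2 pairs. Cd3g read 12.49 in untreated Th1 cells, 10.81 and 10.74 with siRNA, and 12.52, 11.47 and 11.51 in Th2 cells. Cd3d and Cd3e, 2 further invariant chains, fell by 1.35 ± 0.17 and 1.24 ± 0.33. Ubash3a, a phosphatase that damps receptor signals, fell by 1.18 ± 0.15. Cd3e and Ubash3a did not pass with 2 pairs (adjusted p 0.102 and 0.0551). Cd247, the zeta chain, did not pass over both cell types on the probe set used (0.47, limma adjusted p 0.109) and rose by 0.82 in Th2. Of its 4 tested probe sets 1 was called higher over both cell types. In Th2 alone 5 of the 18 rose and 9 fell. Cd3e fell less in Th2 (0.51) than in Th1 (1.97), and that difference passed (adjusted p 0.0100).

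Genes of calcium signalling went both ways, with 7 of 28 higher (25%) and 12 lower (42.9%), against 21.2% and 17.1% of all probe sets. The median was -0.47, or -0.19 on the deposited values. The pump Atp2a2, which refills the endoplasmic reticulum, rose by 1.36 ± 0.17, and its relative Atp2a3 fell by 1.46 ± 0.15. Atp2a3 read 8.95 in untreated Th1 cells, 7.72 and 7.67 with siRNA, and 9.88, 8.20 and 8.19 in Th2 cells. The inositol trisphosphate receptors Itpr2 and Itpr3 fell by 1.84 ± 0.25 and 1.17 ± 0.13, and the plasma membrane channel Orai2 by 1.01 ± 0.13. Camk4 fell by 1.47 ± 0.29, but of its 5 probe sets 1 was called lower and 1 higher, and its mean over probe sets was 0.16. Itpr2 had 2 of 6 probe sets lower and 1 higher. With 2 pairs only 1 gene of the 28 was higher and 2 lower, against 5.42% and 5.10% of all probe sets.

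More interferon response genes fell than rose with siRNA. Of 27 genes of the type I response 14 fell (51.9%) and 1 rose (3.70%), with a median of -0.60, or -0.28 on the deposited values, and with 2 pairs 3 fell and 0 rose. Ifit3, an interferon-induced antiviral protein, read 7.51 in untreated Th1 cells, 4.18 and 4.35 with siRNA, and 6.37, 4.21 and 4.52 in Th2 cells. All 4 siRNA arrays were near the floor. Mx1, an antiviral GTPase, read 7.96, 5.63 and 5.56 in Th1 and 7.75, 6.57 and 6.70 in Th2 cells. Irf7, which amplifies the response, fell by 1.19 ± 0.22, Isg20 by 1.77 ± 0.47 and Ifi27l2a by 1.71 ± 0.14. The 1 that rose, singled out by that count, was the RNA sensor Ifih1, at 0.89 ± 0.15. The upstream 250 bases of Ifit3 (chr19:34583279-34583528 of GRCm38.p6, plus strand, from RefSeq) hold 2 matches to the interferon-stimulated response motif, which is GAAA, any 2 bases and GAAA. Both lie on the reverse strand and are in capitals.
Ifit3: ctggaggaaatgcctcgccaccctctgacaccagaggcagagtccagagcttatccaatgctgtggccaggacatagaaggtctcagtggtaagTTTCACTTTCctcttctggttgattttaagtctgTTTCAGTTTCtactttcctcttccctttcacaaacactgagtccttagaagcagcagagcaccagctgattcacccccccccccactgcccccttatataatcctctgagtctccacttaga
This motif was in 11 of the list's 26 promoters (42.3%), in 3.44% of all promoters and in 2.97% of those of tested genes. The AP-1 motif was in 8 of the 26 (30.8%), against 7.81% and 5.45%. Among promoters of genes called at least 2-fold lower the shares were 2.93% and 6.02%.

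Of 24 genes of small RNA machinery and nucleic acid sensing 4 rose (16.7%) and 8 fell (33.3%), against 21.2% and 17.1% of all probe sets. The median was -0.11, which became 0.13 on the deposited values. Cgas, a sensor of DNA in the cytosol, rose by 1.07 ± 0.19, and Sting1, its downstream adaptor, fell by 1.37 ± 0.19. Prkra, an activator of the kinase PKR, fell by 1.69 ± 0.26. Among Argonaute genes Ago4 fell by 1.07 ± 0.14, and Ago3 fell by 0.98 ± 0.19 on 1 of 5 probe sets with 2 others called higher. None of the 24 was higher with 2 pairs, and 2 were lower, against 5.42% and 5.10% of all probe sets.

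Lipid genes went both ways. Of 27 cholesterol and fatty acid genes 9 fell (33.3%) and 4 rose (14.8%), against 17.1% and 21.2% of all probe sets. The median was -0.26, which turned to 0.12 on the deposited values. Abcg1, which exports cholesterol, read 8.88 in untreated Th1 cells, 5.59 and 5.72 with siRNA, and 9.14, 5.12 and 4.95 in Th2 cells. Abca1, another exporter, fell by 1.83 ± 0.22, although 1 of its 2 probe sets was called higher. Mylip, which degrades the LDL receptor, fell by 1.55 ± 0.37, and the desaturase Scd2 by 2.93 ± 0.46. Idi1, an enzyme of sterol synthesis, rose by 1.45 ± 0.14, and Insig1, the sterol feedback protein, by 1.19 ± 0.13.

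**Figure D3:**
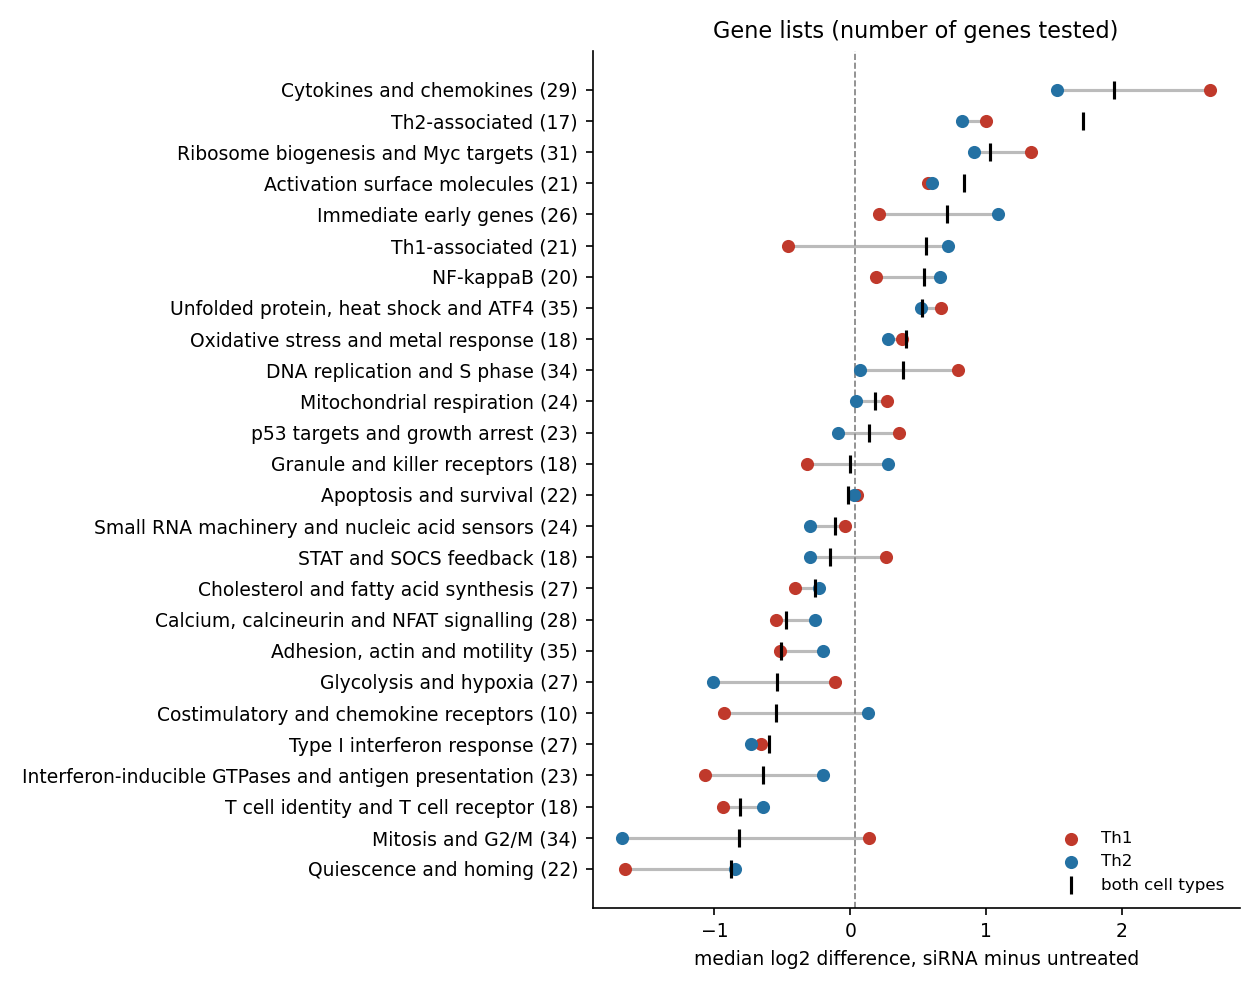
Median log2 difference between siRNA and untreated cells for each gene list (x axis) in Th1 (red), in Th2 (blue) and in both together (black bar), with the number of genes tested in brackets. Cytokines have a median of 1.94 in both and quiescence genes of -0.88, and mitosis genes are apart by cell type (0.14 in Th1, -1.68 in Th2), against 0.04 for all probe sets (dashed line).

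Some of the largest single values rested on 1 probe set of a gene. Laptm5, a lysosomal protein that lowers receptor levels, had the largest fall, 7.53 ± 0.22 on 1 probe set, from 11.63 to 4.48 and 4.59 in Th1 and from 12.22 to 4.32 and 4.18 in Th2 cells. Its other 4 probe sets differed by -1.75, -1.40, -0.61 and -0.58. Prelid1, a mitochondrial lipid carrier, differed by -5.36 ± 0.21 on 1 probe set and by -3.41 on a second, while 3 others lay at -0.48, -0.10 and 0.17. Cct3, a chaperonin subunit, rose by 6.63 ± 0.16 on 1 probe set and by 0.97 to 1.64 on the other 5. Ddx39a, an RNA helicase, rose by 5.94 ± 0.14 against 0.88 to 1.22 on the other 4. Rlim rose by 4.98 ± 0.16 on 1 probe set, with the other 3 at -0.44, 0.39 and 0.45.

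The same split was found in Adcy3, where a fall of 4.83 ± 0.18 stood beside -2.09, -0.78 and -0.45, and in Ndufs8, where -4.33 ± 0.24 stood beside 5 values from -0.46 to -0.17. Slc35e4, Zyx and Galm fell by 4.16 ± 0.29, 3.89 ± 0.26 and 5.01 ± 0.15 on 1 probe set, with the other tested one of each at -0.20, -0.80 and -0.09. The probe sets of Laptm5, Prelid1, Adcy3, Ndufs8 and Slc35e4 with the largest fall were high on both untreated arrays (8.59 to 12.22) and on both 12-hour Th1 retrovirus arrays (8.84 to 11.28), and low on the 4 siRNA arrays (4.18 to 6.36). The second Prelid1 probe set that fell was low on the 12-hour arrays too, at 5.83 and 4.91. Those of Cct3, Ddx39a and Rlim were low on the untreated arrays alone (4.18 to 4.54) and 8.95 to 11.21 on the others. Across all genes, 27 probe sets passed with at least 16-fold change and had other tested probe sets. For 14 the median of the others was at least 2-fold the same way, and for 13 it was under 2-fold. Of 4010 genes with 2 or more tested and at least 1 called, 695 had all called in 1 direction and 417 had calls in both. Tmem151a, Tcerg1l and Rell2, which fell by 4.22 ± 0.16, 4.11 ± 0.44 and 3.93 ± 0.17, were measured on 1 tested probe set. Sp6, which fell by 3.74 ± 0.18, had a second at 0.05.

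**Figure D4:**
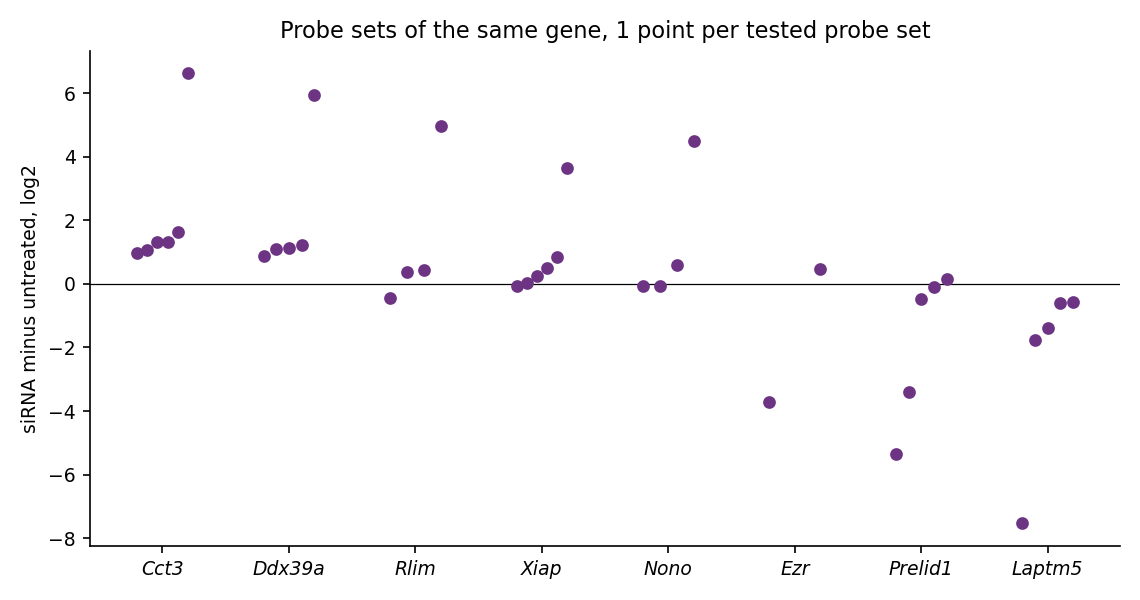
Log2 difference between siRNA and untreated arrays over both cell types (y axis) for every tested probe set of 8 genes, 1 point per probe set. In each gene 1 or 2 probe sets stand far from the rest, as for Laptm5 at -7.53 and Cct3 at 6.63.

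Changes in one cell type were read from the difference between the Th1 and Th2 changes. In Th1 17323 probe sets passed (58.8%), 32.7% of all higher and 26.1% lower. In Th2 12705 passed (43.1%), 22.0% higher and 21.1% lower. These tests set 2 siRNA arrays against 1 untreated array and take their spread from the 2 siRNA arrays of each type. The difference passed for 7219 probe sets (24.5%), 13.7% with the larger value in Th1 and 10.8% with the larger value in Th2. Here and below, the larger value is that of the signed change with siRNA, not of the level. The untreated Th1 and Th2 arrays differ in sex-linked transcripts from the siRNA arrays as given above, so a difference between cell types and one between single untreated cultures cannot be told apart. The count fell to 2436 without the Th2 Thy1 siRNA array and lay between 3354 and 4267 without any one of the other 3 siRNA arrays.

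Among those 7219, 1742 rose in Th1 and did not pass in Th2, and 1478 fell in Th1 and did not pass in Th2. In Th2 alone 440 rose and 690 fell. A further 579 rose in Th1 and fell in Th2, and 349 did the opposite. The remaining 1877 with both changes called went the same way to a different extent.

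Genes of cell division separated the cell types most. Of 34 genes of mitosis and G2/M, 33 fell in Th2 (median -1.68), while in Th1 6 rose and 9 fell (median 0.14). The difference passed for 29 of 34, all with the larger value in Th1, against 13.7% of all probe sets. With 1 probe set per gene, as the lists are read, it passed for 34.2% in either direction. Ccnb2, a mitotic cyclin, read 10.08 in untreated Th2 cells, 6.56 and 6.78 with siRNA, and 9.92, 8.18 and 8.30 in Th1 cells (difference adjusted p 0.0116). Ube2c, which feeds the anaphase ubiquitin ligase, read 10.37, 7.0 and 7.16 in Th2 and 10.13, 9.37 and 9.23 in Th1 cells. Cdc20, its activator, fell by 2.45 in Th2 and by 0.54 in Th1. Ccnf, Plk1 and Cdc25b fell in both types, by 2.70, 2.26 and 1.95 in Th2 and by 1.79, 1.44 and 1.57 in Th1, with no call of a difference (adjusted p 0.0648 to 0.191). Untreated Th1 and Th2 cells thus had similar levels of Ccnb2 and Ube2c, and the siRNA arrays did not.

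Genes of DNA replication rose in Th1. Of 34 tested, 24 rose and 0 fell in Th1 by limma (the same numbers at an unadjusted p under 0.05, median 0.79), and 6 rose and 5 fell in Th2 (median 0.07). The difference passed for 18, each larger in Th1, against 13.7% of all probe sets. Ung, which removes uracil from DNA, read 5.29 in untreated Th1 cells, 8.45 and 8.27 with siRNA, and 6.87 against 8.18 on both Th2 siRNA arrays. Rfc3, a subunit of the clamp loader, read 7.05, 9.98 and 9.91 in Th1 and 8.07, 8.54 and 8.62 in Th2 cells. Gins2, of the replicative helicase, rose by 2.29 in Th1 and 0.76 in Th2, while Rfc4 rose by 0.69 and 0.71 on the probe set used and by 2.29 and 0.97 on its other one. The 250 bases before Rfc3 (chr5:151651209-151651458 of GRCm38.p6, minus strand, from RefSeq) hold 1 match to an E2F motif, TTTCGCGC, shown in capitals.
Rfc3: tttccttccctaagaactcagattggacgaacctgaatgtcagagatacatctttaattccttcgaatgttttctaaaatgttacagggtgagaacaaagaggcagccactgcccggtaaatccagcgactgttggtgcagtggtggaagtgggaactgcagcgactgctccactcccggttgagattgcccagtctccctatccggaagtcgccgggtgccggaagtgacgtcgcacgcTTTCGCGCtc
An E2F motif (TTTGGCGC or TTTCGCGC on either strand) was in 9 of the list's 33 promoters (27.3%) and in 0.813% of all promoters. Among promoters of tested genes the share was 1.44%, and among those of genes called at least 2-fold higher 2.16%.

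Glycolysis and hypoxia genes fell in Th2. Of 27 tested, 21 fell and 0 rose in Th2 by limma (the same numbers at an unadjusted p under 0.05, median -1.01), and 8 fell and 5 rose in Th1 (median -0.11). The difference passed for 13, each larger in Th1, against 13.7% of all probe sets. Aldoc, an aldolase, fell in both, from 9.03 to 5.22 and 5.48 in Th2 and from 9.74 to 6.22 and 6.63 in Th1. Pdk1, which keeps pyruvate from the mitochondria, fell by 1.96 in Th2 and 0.64 in Th1 (difference adjusted p 0.0290). Ddit4, an inhibitor of mTORC1, fell by 1.86 and 0.77. Egln3, an oxygen sensor, read 9.92 in untreated Th1 cells, 7.93 with Thy1 siRNA and 8.83 with Trpm4 siRNA, so that the 2 siRNA arrays were apart there. The hypoxia core ACGTG was in 23 of the list's 38 promoters (60.5%) and in 19.6% of all. Among promoters of tested genes the share was 24.8%, and among those of genes called at least 2-fold lower over both cell types 22.6%.

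**Figure D5:**
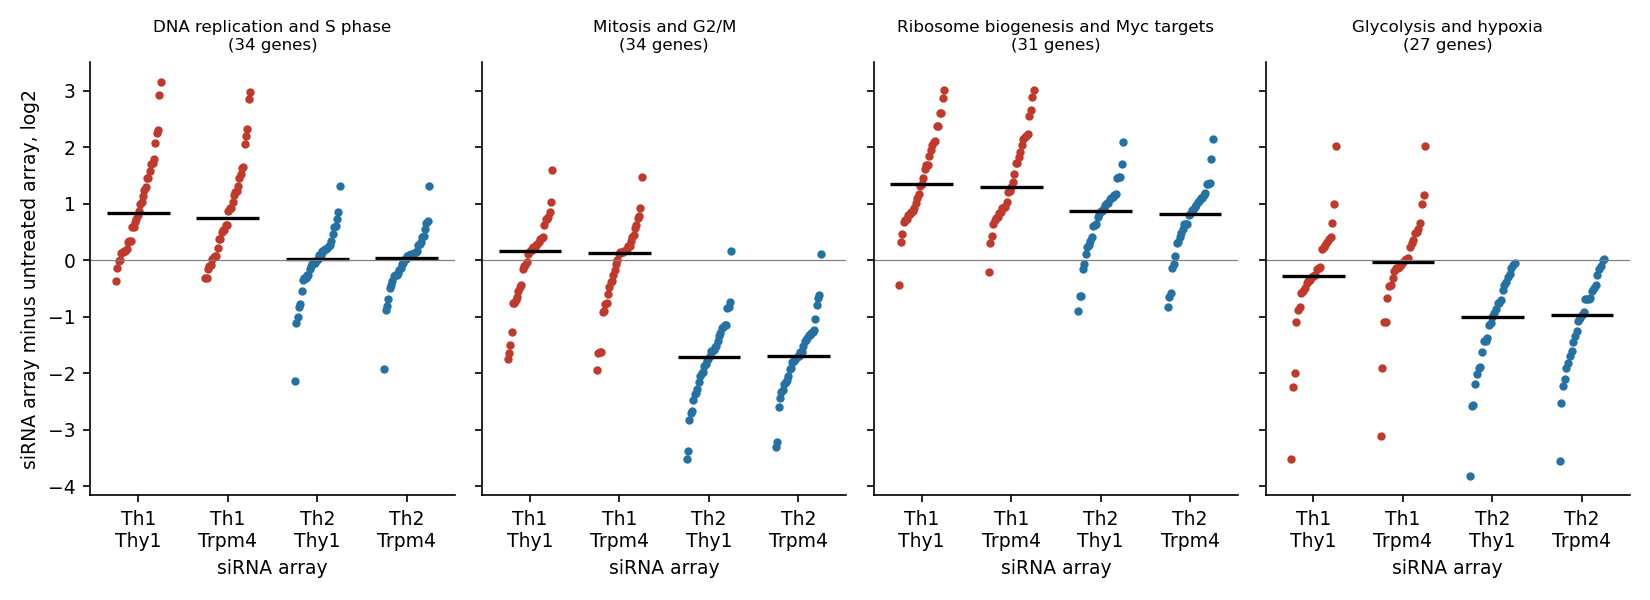
Log2 ratio of each siRNA array to the untreated array of its cell type (y axis) for every tested gene of 4 lists, 1 point per gene and a bar at the median, Th1 in red and Th2 in blue. The 2 siRNA arrays of a cell type have nearly the same median, at 0.16 and 0.13 for mitosis in Th1 and -1.72 and -1.70 in Th2.

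Interferon gamma targets fell in Th1. Of 23 interferon-inducible GTPases and antigen presentation genes, 18 fell and 2 rose in Th1 (median -1.07), against 9 and 5 in Th2 (median -0.20). Of all probe sets 26.1% fell and 32.7% rose in Th1, and 21.1% fell and 22.0% rose in Th2. The difference passed for 15, and for 14 of these the Th1 change was below the Th2 change. Of all probe sets 24.5% passed, and 10.8% had the Th1 change below the Th2 change. Gbp6, a guanylate-binding GTPase, read 10.36 in untreated Th1 cells, 8.46 and 8.35 with siRNA, and 11.26, 10.18 and 10.24 in Th2 cells. Nlrc5, the activator of MHC class I genes, fell by 1.6 in Th1 and 0.64 in Th2, and Psmb9, an immunoproteasome subunit, by 1.52 and 0.97. The Nlrc5 difference passed (adjusted p 0.0300) and the Psmb9 difference did not (0.0646). H2-K1, a class I molecule, fell on the probe set used by 1.27 ± 0.23 over both types, with 1 of its 4 probe sets lower and 1 higher. Irf8 rose in both, by 1.29 and 1.17. The receptor Il18r1, which lets Th1 cells respond to interleukin 18, fell by 2.96 in Th1 and 1.2 in Th2 cells.

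The Th2 cytokines Il4 and Il5 rose in Th2 cells, while in Th1 cells Il4 did not pass (0.07, adjusted p 0.637) and Il5 fell by 0.45. Il4 read 8.05 in untreated Th2 cells and 12.79 and 12.82 with siRNA, and 5.33, 5.38 and 5.40 in Th1 cells (difference -4.69, limma adjusted p 0.00290). Il5 read 8.19, 12.07 and 12.05 in Th2 and 6.43, 5.95 and 6.01 in Th1 cells. Both 12-hour Th1 retrovirus arrays were low for them, at 4.25 and 4.61 for Il4 and 4.84 and 4.64 for Il5. Il13 rose in both types, and more in Th1 (6.07) than in Th2 (3.70, difference adjusted p 0.00719), from the floor in untreated Th1 cells. Il10 rose by 3.04 in Th1 and 0.85 in Th2, where it was already at 11.50 untreated.

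Other genes rose to high levels in Th1 cells and were already high in untreated Th2 cells. Penk, which encodes enkephalin, read 4.34 in untreated Th1 cells and 12.53 and 12.54 with siRNA, and 12.45, 13.03 and 13.09 in Th2 cells. Il24, of the interleukin 10 family, read 4.89, 11.21 and 11.46 in Th1 and 9.84, 9.27 and 9.26 in Th2 cells. On the siRNA arrays these transcripts, which untreated Th2 cells carried and untreated Th1 cells did not, were high in both. Ccl9, a chemokine, was less high in untreated Th2 cells (7.67, against 5.20 in untreated Th1 cells) and rose in both types. Its rise was 6.90 in Th1 and 2.91 in Th2, and 4.75 and 2.78 on its other probe set.

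Several genes rose in Th1 and fell in Th2. Ccr7, the receptor for entry into lymph nodes, read 5.91 in untreated Th1 cells, 9.59 and 9.81 with siRNA, and 8.0, 5.24 and 5.53 in Th2 cells. The 12-hour Th1 retrovirus arrays read 5.84 and 5.93, close to the untreated Th1 value. Myb, a factor of proliferating progenitors, read 5.94, 8.65 and 8.70 in Th1 and 8.27, 4.95 and 4.38 in Th2 cells, and its other 2 probe sets gave the same pattern of levels. Shroom3, an actin regulator, rose by 4.6 in Th1 and fell by 1.53 in Th2 on the probe set the rule chose. On 2 of its other 3 probe sets the Th2 siRNA arrays were above untreated (6.73 and 6.24 against 5.42, and 6.30 and 6.48 against 5.22). Cd200, an inhibitory ligand, rose by 4.77 in Th1, with -0.61 in Th2 that did not pass (adjusted p 0.0679).

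Fasl, the death ligand, went the other way. It read 10.05 in untreated Th1 cells, 8.63 and 8.77 with siRNA, and 6.49, 9.65 and 9.56 in Th2 cells. Ipcef1, which interacts with cytohesins, read 10.03, 7.79 and 7.90 in Th1 and 6.89, 9.14 and 9.15 in Th2 cells. Both genes were thus higher in Th1 than in Th2 cells when untreated and lower when siRNA was present. Among 21 Th1-associated genes the difference passed for 17, and for 13 of these the Th1 change was below the Th2 change. Of all probe sets 24.5% passed, and for 10.8% the Th1 change was below the Th2 change. This is not a fall in Th1 for each of them, as Ifng rose by 2.65 in Th1 and by 4.43 in Th2. Of the 21 genes 8 rose and 11 fell in Th1, against 32.7% and 26.1% of all probe sets. The chemokine receptors Cxcr3 and Ccr2 changed in Th1 by -2.31 and -3.25, with 0.31 and -0.51 in Th2 that did not pass. Cxcr6 read 12.29 in untreated Th1 cells, 10.26 and 10.34 with siRNA, and 12.00, 12.55 and 12.53 in Th2 cells.

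Other entries rest on 1 high value of an untreated array. Sval1 read 10.64 and Myo6, a motor protein, 11.12 in untreated Th2 cells, and each was under 6 on the other 5 arrays (4.92 to 5.35 for Sval1, 4.39 to 5.87 for Myo6). Zc3h10 read 12.68 and Rnf14 12.73 in untreated Th1 cells on the probe sets chosen, against 6.80 to 7.75 and 7.98 to 8.91 on the other 5 arrays. The other 3 Rnf14 probe sets read 9.59, 6.42 and 8.31 in untreated Th1 cells and 9.63, 7.05 and 8.66 in untreated Th2 cells. Ifi209, an interferon-inducible gene, fell by 4.84 in Th1 and 1.33 in Th2, and its second probe set gave a like order of levels.

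The remaining lists are given over both cell types. Of 17 Th2-associated genes 6 rose (35.3%) and 1 fell (5.88%), with a median of 1.71 (4 and 0 with 2 pairs). Of 24 genes of mitochondrial respiration 6 rose and 1 fell, with a median of 0.18. Of 23 p53 targets 5 rose and 6 fell. Of 18 granule and killer receptor genes 2 rose and 3 fell, and of 18 STAT and SOCS feedback genes 4 rose and 4 fell. Of 10 costimulatory and chemokine receptors 1 rose and 2 fell. Of all probe sets 21.2% were called higher and 17.1% lower, against 21.7% and 26.1% of the p53 targets and 22.2% in each direction for the STAT and SOCS genes.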

How the data were processed

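The deposited table holds probe set intensity on a linear scale, as the authors processed it, for 14 arrays of 45101 probe sets. Per the labels' protocols, Trizol was used for total RNA, and targets carried biotin for hybridisation to Affymetrix arrays. Summarisation, background and scaling are not given in the sources used here. Probe sets were named from the platform annotation. Of them 34958 had 1 gene, 932 had several and 9211 had none. Each condition has 1 array, so precision is set by how few arrays there are.

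Quantile normalisation used all 14 arrays. A pseudocount of 16 was added before log2, so a log2 difference understates changes of low genes. Probe sets above the array median in at least 2 of 14 arrays were kept (29467, for 13118 genes). limma 3.58.1 in R 4.3.3 (lmFit, eBayes) fitted cell type and siRNA for the shared comparison (3 residual degrees of freedom), and 4 cell means for Th1, Th2 and their difference (2). Tests were two-sided, with Benjamini-Hochberg adjustment over all probe sets and a threshold of 0.05. The fits were checked on simulated data. A list gene was read on its probe set of highest mean, and 685 of 787 list genes were tested in 32 lists. With 1 such probe set for each gene, larger shares passed than of all probe sets. These were 41.7% in the shared comparison, 65.7% in Th1, 51.4% in Th2 and 34.2% for the difference.

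Named genes were the 12 largest per direction that passed (8 for single cell types and the difference), 1 per gene. In the shared and single cell type comparisons they also needed the same sign on all their siRNA arrays. For the difference no such rule on sign was applied. Thy1, Trpm4 and up to 6 members per list were named as well. Members, lists and tests were chosen with earlier results of these data known. Lists overlap, so genes such as Il3, Il13 and Ccl3 count in more than one. Promoter motifs were counted on both strands in the RefSeq promoter windows, which run past the start site, and the 250 bases before it are printed. Alternatives covered scaling, filter, pseudocount, variance model, probe sets per gene, array weights and each array left out. The average of the siRNA arrays of a cell type, the mean of the probe sets of a gene and the removal of probe sets ending in _x_at or _s_at were added after seeing the data.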

Additional observations from a re-analysis of the deposited data

Results flagged for a closer look

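For 16 genes the change with siRNA differed between Th1 and Th2 cells by a test of the difference itself, in limma, with the cell means of 6 arrays. The values are the Th1 change minus the Th2 change on the log2 scale. It was 7.59 for Penk, 7.02 for Il24, 6.40 for Ccr7, 6.34 for Myb, 6.14 for Shroom3, 5.74 for Sval1, 5.47 for Eif2s3y and 5.38 for Cd200. It was -6.13 for Zc3h10, -5.95 for Xist, -4.77 for Iqce, -4.69 for Il4, -4.47 for Fasl, -4.44 for Ipcef1, -4.32 for Il5 and -3.76 for Rnf14. Adjusted p lay between 0.00289 and 0.00716. Each rests on 1 untreated array per cell type. Xist and Eif2s3y are sex-linked, and the part of the animals' sex in the other 14 was not tested. The Xist value is that of a probe set on which Xist did not pass in Th2 (0.29, adjusted p 0.119), and on the probe set that fell in Th2 the difference was -4.66. Iqce read 6.79, 4.83 and 5.13 in Th1 and 4.93, 7.94 and 7.85 in Th2 cells, untreated first, and its other 2 probe sets gave differences of -0.77 and -0.36 that did not pass (adjusted p 0.239 and 0.431).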

How the results depend on the processing

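With 1 array per condition the counts of passing probe sets moved more than the directions did. The shared count of 11288 became 3100 with the siRNA arrays of a cell type averaged, 2622 with the Thy1 siRNA arrays alone, 3071 with the Trpm4 siRNA arrays alone, 2880 with array weights, 7488 with a filter at the 75th percentile, 5469 with 1 probe set per gene and 5457 with the mean of the probe sets of a gene. These last 3 test fewer features, and the first 3 use fewer arrays. For array weights the cause was not tested. In Th1 17323 became 11341 with the 75th percentile filter, 8619 with 1 probe set per gene and 8430 with the gene mean. In Th2 12705 became 6738 and 6468 with the last 2, and for the difference 7219 became 4481 and 4067, and 4727 with a pseudocount of 1. Leaving out each array in turn gave 6833 to 17323 for the shared comparison, 15053 to 17323 for Th1, 8174 to 12705 for Th2 and 2436 to 4267 for the difference. Without the untreated Th2 array the shared fit equals the Th1 fit in its count (17323), and without the Th2 Thy1 siRNA array it was 8169.

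Direction turned in 11 named cases. With the gene mean Camk4 became 0.16, H2-K1 0.56 and Ago3 0.05. Without the untreated Th1 array Ccr1 became 0.45, Cxcr6 0.54, Ebf1 -0.74, Fcmr -1.40 and Ikzf4 -0.45, against -1.15, -1.99, 2.62, 2.18 and 1.91 without the untreated Th2 array. Without the untreated Th2 array Eomes became -1.19 and Hemgn 0.49, against 2.31 and -1.35 without the untreated Th1 array. On deposited values Lamp1 became 0.01. Leaving out an untreated array leaves the change in the other cell type alone, and for the other cases the cause was not tested. On deposited values the share of higher calls was 72.5% in Th1 (55.6% here), 69.0% in Th2 (51.1%) and 64.1% for the difference (55.8%). Of 178 single genes called in the shared comparison, 107 were also called with averaged siRNA arrays and 71 were not. The pairing used is by cell type, since the labels give no replicate numbers and each condition has 1 array. Signal over background limits genes near the floor of 4, such as Il3 and Xcl1 in untreated cells.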
